A study of Mus musculus with 18 samples.

Results

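The microglial marker genes are 38 genes used as markers of microglia and related macrophages, and they were followed here in cultures of cortical astrocytes. Not all are restricted to these cells, and *Cyba* is made by many cell types. The 38 genes were taken by gene symbol from the 51912 genes counted, by a rule of names that uses no measured value. The names were chosen with earlier results of these data known. Of the 38 members, 37 had enough reads to be among the 24495 genes tested, and *Siglech* did not. The cultures came from the cortices of male and female mice at postnatal day 0 that were hemizygous for Aldh1l1-EGFP/Rpl10a, a transgene whose *Aldh1l1* promoter, active in astrocytes, drives RPL10A, a protein of the large ribosomal subunit, fused to EGFP. All dishes carried the transgene, were grown for 14 days to confluence, were passaged, and were switched to serum-free medium 6 days later and 24 h before treatment. Control dishes (0 mM ethanol) and ethanol dishes (50 mM ethanol) were then kept for 24 h. RNA bound to tagged ribosomes (IP) was sequenced from 6 control and 6 ethanol dishes, and RNA of the whole lysate (input) from 3 control and 3 ethanol dishes, replicates 4 to 6 of each. The dish was the replicate, and the labels do not say from how many separate preparations of cortex the dishes came, so that p-values measure the spread between dishes.

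Microglia are the resident macrophages of the brain, arise outside the neural tube and depend on signalling through the CSF1 receptor, whose ligands astrocytes and neurons can make. They survey tissue with purinergic and chemokine receptors, make the C1q chains of complement, and clear debris with lysosomal enzymes and Fc and TREM2 receptors that signal through small adaptor proteins. They are known to persist in cultures of neonatal cortical astrocytes. Because the tag is driven by an astrocyte promoter, microglial ribosomes are not meant to carry it.

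The transcription factor PU.1, encoded by the member *Spi1*, binds purine-rich sites with a GGAA core next to many myeloid genes, and 6 members had the 8 bases GAGGAAGT, a form of this site, on either strand near their start. The window searched was 300 bases long and spanned the RefSeq start, most of it upstream, and 31 of the 38 members had such a window. The 6 members made 19.4% of the 31, beside 3.69% of all 27025 genes with a window. The nested 7 bases AGGAAGT were in 11 of the 31 members (35.5%) and in 10.7% of all genes. The composite element of PU.1 and IRF factors, also searched, was in 2 of the 31 (6.45%), *Cd68* and *Cybb*, and in 3.16% of all genes. These are matches of letters and not measured binding. No window was matched for *Tmem119*, *Gpr34*, *Spi1*, *Csf1r*, *C1qa*, *Tyrobp* and *Selplg*. The 6 stretches are shown because they are the only members with the full 8 bases. They are RefSeq sequence of GRCm38.p6, read 5′ to 3′ on the strand of the gene, with the 8 bases or their reverse complement in capitals. They lie at chr2:22774321-22774350 (plus strand) for *Apbb1ip*, chr3:95526739-95526791 (plus strand) for *Ctss*, chr3:106790125-106790154 (minus strand) for *Cd53*, chr4:136893057-136893154 (minus strand) for *C1qc*, chr6:65144731-65144824 (minus strand) for *Hpgds* and chr7:88277889-88277986 (plus strand) for *Ctsc*.
Apbb1ip: gggctcaaagcACTTCCTCctccctgagcc
Ctss: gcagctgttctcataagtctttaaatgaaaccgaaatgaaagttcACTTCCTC
Cd53: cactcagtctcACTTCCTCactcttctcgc
C1qc: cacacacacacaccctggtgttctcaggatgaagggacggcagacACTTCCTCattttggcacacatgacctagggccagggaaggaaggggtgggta
Hpgds: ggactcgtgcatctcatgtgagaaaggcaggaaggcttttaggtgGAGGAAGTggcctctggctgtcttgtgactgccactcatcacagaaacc
Ctsc: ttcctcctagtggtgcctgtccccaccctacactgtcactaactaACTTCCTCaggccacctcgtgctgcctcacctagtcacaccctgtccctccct

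The libraries held between 74239900 and 132811000 read pairs counted on genes. Levels are given as CPM, the read count relative to the library total, scaled with TMM factors between 0.984 and 1.03. Of 12 astrocyte markers, 9 were higher in IP and 1 (*S100b*) lower, where 25.2% of all genes were higher. Their summed level per dish in IP was 1.53 to 1.58 times that in input, beside 1.43 to 1.55 times for markers of the oligodendrocyte lineage and 1.17 to 1.27 times for those of neurons. By gene these lists were mixed, since 5 of 11 oligodendrocyte lineage markers were higher in IP and 4 lower. For neurons it was 4 and 2 of 10. The median log2 fold change was -0.24 and 0.30 for these 2 lists and 0.57 for astrocyte markers. Markers of neutrophils and monocytes summed to 0.548 to 1.30 CPM in input and those of lymphocytes to 2.67 to 3.18 CPM, most of it *Trbc2*, with *S100a9*, *Retnlg* and *Cd3g* at 0 reads in all 18 libraries.

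The first comparison asks what share of the counted pairs in input the 38 members took up. This is a share of chosen genes and not of all microglial RNA, and it includes *Cyba*, which many cell types make. In input, the 38 members together took up 1131, 1088 and 1087 CPM without ethanol and 1255, 1084 and 1127 CPM with it, or 0.111% to 0.128% of all counted pairs. Ethanol replicate 4 stood above the other 5 input libraries, and the control and ethanol groups overlapped. *Lyz2*, the lysozyme of macrophages, gave 34.2% of the sum. For scale, the astrocyte markers summed to 1579 to 1660 CPM in input, or 0.161% to 0.171% of all counted pairs. Neither sum measures the part of a cell type in the RNA of the cultures.

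Not all microglial markers were present, and the label holds only in part. In input, 33 members had a mean of at least 1 CPM, and the other 5, which are *P2ry12*, *P2ry13*, *Gpr34*, *Siglech* and *Slc2a5*, had means of at most 0.109 CPM. These 5 are markers of resting, homeostatic microglia. *P2ry12*, the ADP receptor that steers microglial processes, had 4 to 14 read pairs per input library, and *P2ry13* had 5 to 18. *Siglech* had 0 read pairs in all 6 input libraries, which allows a level of up to 0.00587 CPM (3 counts over the 6 libraries, counting error only). For *Gpr34*, only 4 pairs in input lay on the strand of the gene and 41 on the opposite strand. Of the other homeostatic receptors, the fractalkine receptor *Cx3cr1* had 3.49 ± 0.60 CPM (SD, n = 6), *Tmem119* 1.36 ± 0.19 CPM and the Fc receptor-like gene *Fcrls* 11.9 ± 1.4 CPM in input.

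Per kilobase of exon, the highest members in input were *Lyz2* at 293 ± 18 CPM per kb (SD, n = 6), *Cyba* at 53.3 ± 1.0, the Fc receptor gamma chain *Fcer1g* at 47.9 ± 3.2, the lysosomal glycoprotein *Cd68* at 30.0 ± 1.3 and the adaptor *Tyrobp* (DAP12) at 23.9 ± 1.1. Neighbours in this order differed by more than their summed SDs. The exon length used is the union of all annotated exons of a gene, so that orders per kb depend on the annotation. Among the C1q chains the level per kb fell from *C1qb* at 15.6 ± 1.1 to *C1qa* at 13.5 ± 0.9 and *C1qc* at 6.84 ± 0.51. Their exon lengths were 1088, 1040 and 1931 bases, and without this divisor their means in input were 16.9, 14.0 and 13.2 CPM. Per kb the receptor *Trem2* (4946 bases) was low, at 0.763 ± 0.112, and the leukocyte phosphatase *Ptprc* (CD45, 18313 bases) lower, at 0.383 ± 0.052. In CPM their order was reversed, with 2.92 to 4.35 CPM for *Trem2* and 6.06 to 8.69 CPM for *Ptprc* in input. In IP the order of the 5 highest was *Lyz2* at 44.2 ± 3.5 (n = 12), *Cyba* at 43.3 ± 1.9, *Cd68* at 14.5 ± 1.5, the pore-forming protein *Mpeg1* at 11.3 ± 0.8 and *Fcer1g* at 9.80 ± 0.89 CPM per kb, and neither *Lyz2* and *Cyba* nor *Mpeg1* and *Fcer1g* differed there beyond their summed SDs.

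**Figure D1:**
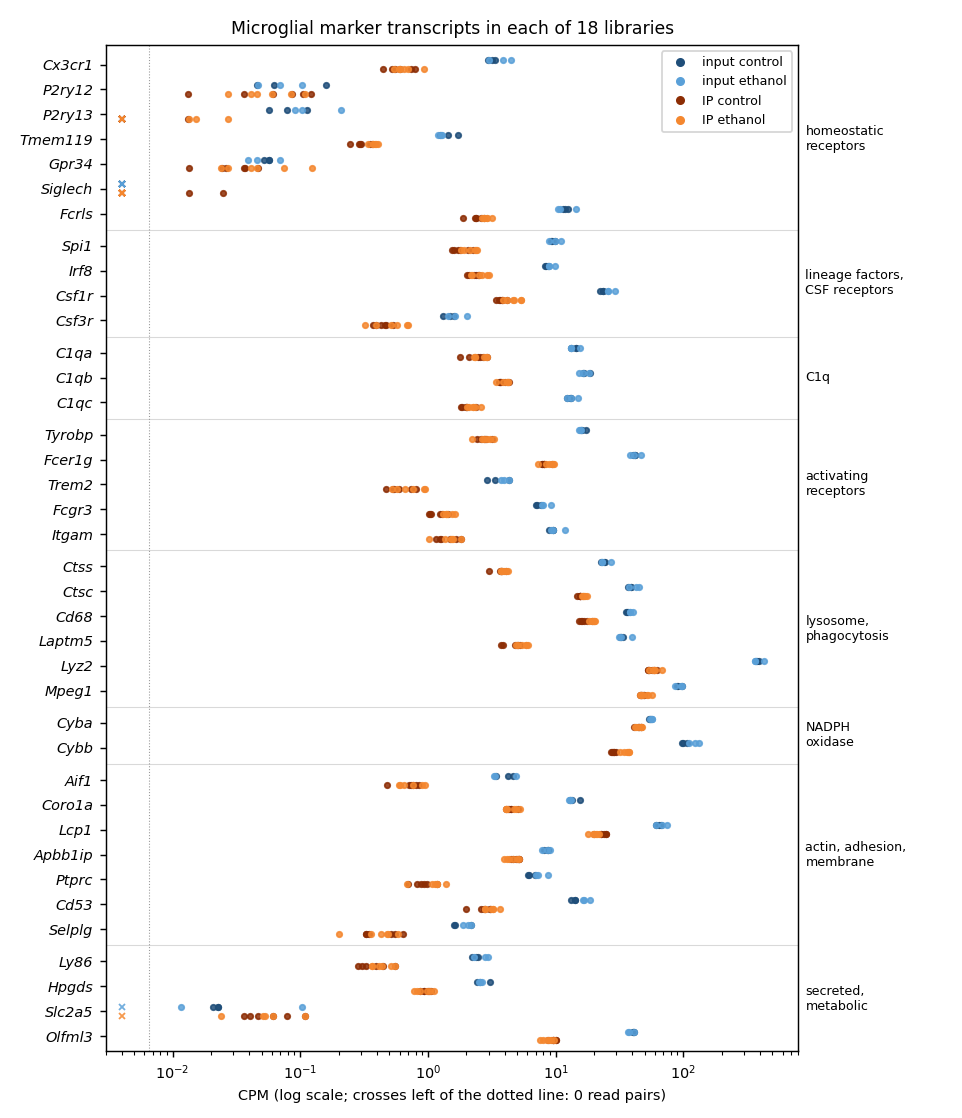
Level of each of the 38 microglial marker genes (rows, grouped by role) in each of the 18 libraries, as CPM on a log axis, with input in blue and IP in brown and orange; crosses stand for 0 read pairs. Most members lie in separate ranges in input and IP, *Lyz2* is the highest at 368 to 431 CPM in input, and *P2ry12*, *P2ry13*, *Gpr34*, *Siglech* and *Slc2a5* stay at or below 0.208 CPM.

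Markers of the macrophages at the borders of the brain were partly present as well. Of 11 such markers, *Mrc1* had a mean of 0.141 CPM in input, *Lyve1* 0.0213, *Folr2* 0.0307, *Clec10a* 0.0200 and *Cd163* 0.00193 CPM, while *Ms4a7* had 9.54, *Stab1* 6.33 and *Pf4* 1.72 CPM. The whole list summed to 42.9 to 46.6 CPM in input and 23.1 to 29.6 CPM in IP. Much of each sum came from *F13a1*, *Cbr2* and *Cd209f*, which are not given singly. Of the 3 markers with at least 5 CPM in input, 2 (*Ms4a7* and *Stab1*) had a log2 fold change below -2, IP relative to input. The list as a whole fell less. Of 10 tested, 5 were lower in IP and 5 not called, beside 25.8% of all genes lower. Their median log2 fold change was -0.81, and 2 of the 10 were above 0. The summed level of the list per dish in IP was 0.548 to 0.629 of that in input. The part of these markers in the levels of the members was not tested. A change in the number of cells of a type cannot be told apart from a change in RNA per cell in such bulk samples.

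IP was then compared with input over all 18 libraries to see how the levels of these transcripts differed between the fractions. A ratio of CPM compares shares of 2 libraries and does not measure how much RNA was recovered in IP. Of the 37 members tested, 34 were lower in IP, 0 were higher and 3 (*P2ry12*, *Gpr34* and *Slc2a5*) were not called, where 25.8% of all genes tested were lower and 25.2% higher in IP (51% in all). In all 34 the IP libraries lay below every input library, as they did for 11.9% of all genes. The median log2 fold change was -2.19 over the members and -0.03 over all genes. Relative to the 6 dishes with both fractions, the summed level of the members in IP was 0.271 ± 0.009 of that in input (SD, n = 6 dishes), with a range of 0.262 to 0.289, and without *Lyz2* it was 0.316 to 0.352. The 10 mRNAs of the mitochondrial genome with at least 5 CPM in input, which no cytosolic ribosome reads, had log2 fold changes of -4.95 to -3.72.

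*Lyz2* was the member with the highest level. Its level in input was 391, 373 and 380.2 CPM in control dishes and 431, 368 and 368 CPM in ethanol dishes. In IP it ranged from 52.6 over a median of 55.6 to 62.5 CPM in control and from 54.0 over 58.9 to 68.6 CPM in ethanol dishes. All 12 IP libraries were far below all 6 input libraries, and the level fell by 2.73 ± 0.05 on the log2 scale (SE, adjusted p = 3.76e-18, edgeR).

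The homeostatic receptors with reads fell with it. The log2 fold change of *Cx3cr1* was -2.44 ± 0.10 (SE), that of *Fcrls* -2.19 ± 0.06 and that of *Tmem119* -1.99 ± 0.13, with adjusted p of at most 2.01e-22. *P2ry13* had 57 read pairs over the 6 input and 6 over the 12 IP libraries, 8 of which had none (log2 fold change -4.01 ± 0.63, adjusted p = 6.47e-08). *P2ry12* (-0.29 ± 0.43, adjusted p = 0.615), *Gpr34* (-0.35 ± 0.50, adjusted p = 0.612) and the fructose transporter *Slc2a5* (0.85 ± 0.58, adjusted p = 0.238) did not pass the test, and *Siglech* had 3 read pairs over the 12 IP libraries.

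Among the factors that set the lineage, the CSF1 receptor *Csf1r* fell by 2.56 ± 0.05 on the log2 scale. Its level was 23.6, 22.2 and 23.4 CPM in input of control dishes and 29.1, 25.8 and 25.8 CPM in input of ethanol dishes, against 3.44 to 5.40 CPM over all IP libraries. *Spi1* fell by 2.28 ± 0.06, its partner *Irf8* by 1.87 ± 0.06 and the receptor for G-CSF, *Csf3r*, by 1.71 ± 0.12, with adjusted p of at most 2.76e-20 for the group. All 4 were thus lower, by between 3.27-fold and 5.91-fold.

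The C1q chains and the activating receptors had the lowest mean dish ratios of the 8 role groups, and their ranges overlapped with that of the lineage factors. *C1qc* fell by 2.63 ± 0.05, *C1qa* by 2.48 ± 0.06 and *C1qb* by 2.10 ± 0.05 (adjusted p of at most 3.16e-35), and their summed IP level was 0.185 to 0.199 of the input in the 6 dishes. In the group of activating receptors and adaptors, the integrin chain *Itgam* (CD11b) fell by 2.74 ± 0.07 and the low-affinity IgG receptor *Fcgr3* by 2.57 ± 0.06. *Trem2* fell by 2.49 ± 0.10. The adaptors with immunoreceptor tyrosine motifs, *Tyrobp* and *Fcer1g*, fell by 2.51 ± 0.05 and 2.29 ± 0.04 (adjusted p of at most 1.79e-27 for the group). The summed ratio of this group was 0.168 to 0.197. *Tyrobp*, which lies at the end of several of these receptors, had 17.4, 15.8 and 16.0 CPM in control and 15.4, 15.4 and 15.8 CPM in ethanol input, and 2.23 to 3.27 CPM in IP. *Fcer1g* had 38.5 to 47.0 CPM in input and 7.33 to 9.76 CPM in IP.

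The lysosomal and phagocytic members split into 2 sets of values. *Laptm5*, a lysosomal membrane protein of blood-lineage cells, fell by 2.72 ± 0.07 and the cysteine protease *Ctss* by 2.66 ± 0.04, close to *Lyz2*. *Ctsc*, a protease that activates serine proteases in granules, fell by 1.32 ± 0.03, *Cd68* by 1.05 ± 0.03 and *Mpeg1* by 0.93 ± 0.04 (adjusted p of at most 1.24e-12 for the 6). *Mpeg1* had 86.4 to 98.3 CPM in input and 45.8 to 57.2 CPM in IP. In each dish its IP level was 0.482 to 0.530 of its input level. The same ratio was 0.139 to 0.159 for *Lyz2* and 0.154 to 0.171 for *Ctss*, and the ranges over the 6 dishes did not overlap.

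The 2 membrane subunits of the phagocyte NADPH oxidase also differed. *Cybb*, the catalytic subunit gp91phox, fell by 1.80 ± 0.03, and *Cyba*, its partner p22phox, which many cell types make, by 0.30 ± 0.03 (adjusted p of at most 2.36e-17). *Cyba* had 54.0 to 56.5 CPM in input and 41.6 to 47.5 CPM in IP, the smallest fold among the 34, and the groups still did not overlap. Its dish ratio was 0.760 to 0.841, against 0.261 to 0.294 for *Cybb*.

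Of the leukocyte actin, adhesion and membrane proteins, *Ptprc* fell most, by 2.80 ± 0.08, followed by the calcium-binding *Aif1* (IBA1) by 2.43 ± 0.10, the tetraspanin *Cd53* by 2.40 ± 0.05 and the selectin ligand *Selplg* by 2.14 ± 0.13. The actin-bundling *Lcp1* (L-plastin) fell by 1.61 ± 0.06, the actin regulator *Coro1a* by 1.59 ± 0.05 and *Apbb1ip* (RIAM), which links Rap1 to integrins, by 0.86 ± 0.05 (adjusted p of at most 1.45e-13 for the 7). Of the remaining members, *Ly86* (MD-1), a partner of a Toll-like receptor homolog, fell by 2.60 ± 0.11, the secreted *Olfml3* by 2.12 ± 0.03 and the prostaglandin D synthase *Hpgds* by 1.46 ± 0.09 (adjusted p of at most 3.54e-24).

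By size, 11 members had a log2 fold change below -2.5, 11 lay between -2.5 and -2, 6 between -2 and -1.5, 3 between -1.5 and -1 and 3 between -1 and 0. Of the 33 members with at least 1 CPM in input, 26 had less than 0.4 of their input level in IP in every dish. In *Cd68*, *Mpeg1*, *Cyba* and *Apbb1ip* it was at least 0.4 in every dish. Whether the reads of a member in IP came from tagged or untagged ribosomes was not tested.

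**Figure D2:**
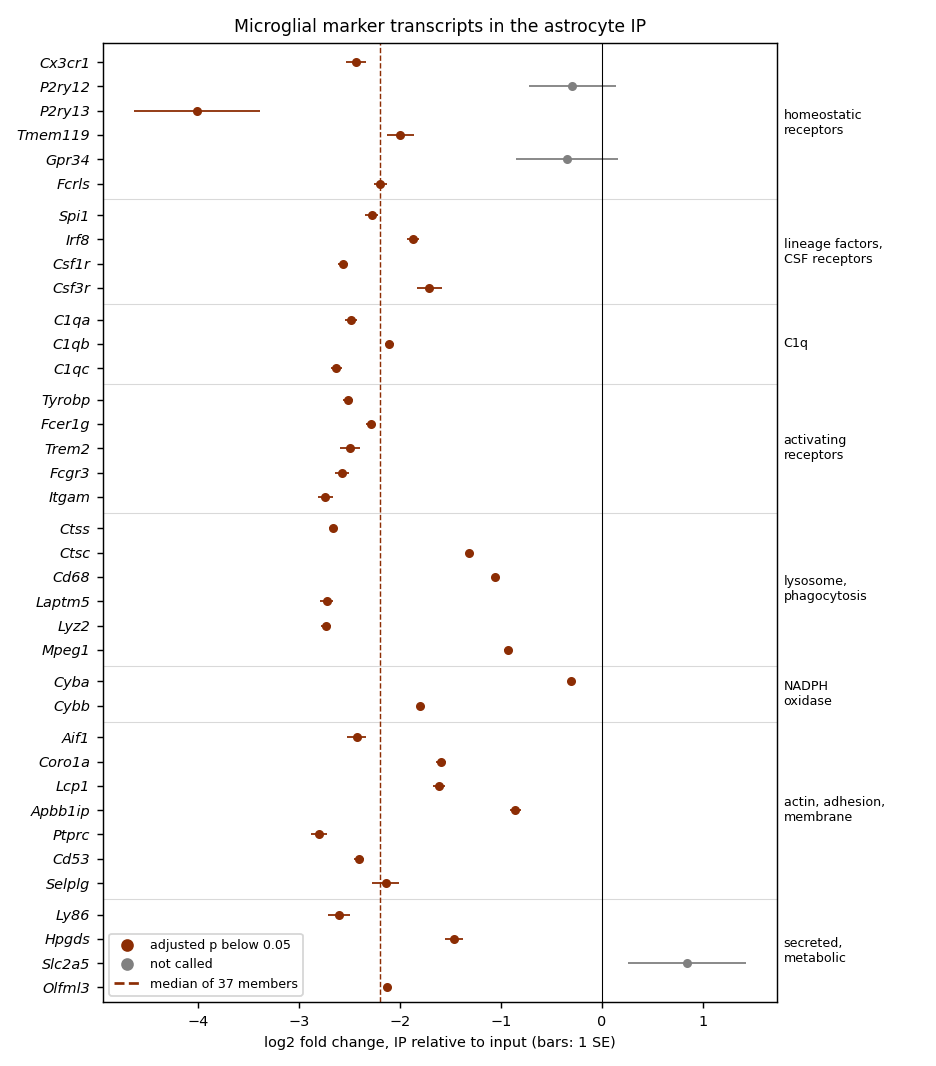
Log2 fold change of IP relative to input for the 37 members tested, grouped by role, with bars of 1 SE (18 libraries); brown points have an adjusted p below 0.05, and the dashed line is the median of -2.19. The 34 called members lie between -4.01 (*P2ry13*) and -0.30 (*Cyba*), and *P2ry12*, *Gpr34* and *Slc2a5* have wide bars around 0.

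A list of 48 further genes of myeloid cells gave a like count. In IP 44 were lower and 2 higher, beside 25.8% and 25.2% of all genes, with a median log2 fold change of -1.85. Their summed level per dish fell less, to 0.579 to 0.612 of that in input, against 0.262 to 0.289 for the members. Among those with at least 1 CPM, *C3ar1*, the receptor for the complement fragment C3a, at 21.0 CPM in input (-2.56 ± 0.07), and the scavenger receptor *Msr1* at 8.2 CPM (-2.55 ± 0.07) fell most. *Cd74*, the invariant chain of MHC class II, rose by 0.78 ± 0.06 from 16.4 to 28.2 CPM, and *Sall1*, a factor that microglia share with neural progenitors, by 0.06 ± 0.02 from 75.2 to 78.6 CPM. *Gpnmb* (-0.23) and *Spp1* (-0.39), which were picked after their values were seen, had 149.3 and 107.4 CPM in input and 127.6 and 81.9 CPM in IP.

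**Figure D3:**
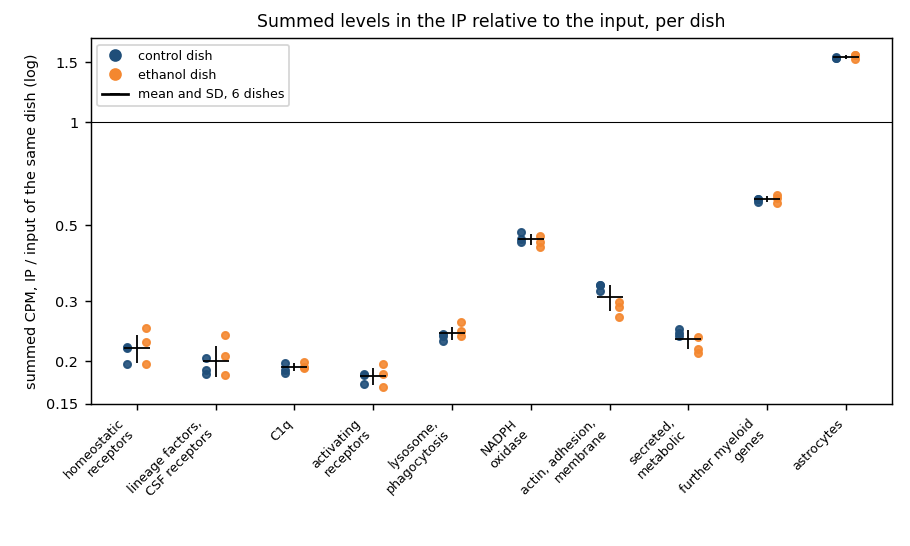
Summed CPM in IP divided by that in input of the same dish, on a log axis, for the 8 role groups of the members, 48 further myeloid genes and 12 astrocyte markers; points are the 6 dishes and bars the mean and SD. The member groups lie between 0.168 and 0.479, the NADPH oxidase pair highest among them. The further myeloid genes lie between 0.579 and 0.612 and the astrocyte markers between 1.53 and 1.58.

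Most ligands and partners known from astrocytes had the opposite direction. Of the 20 on this list, 14 were higher in IP and 3 lower, beside 25.2% and 25.8% of all genes. The list also holds receptors, such as *Mertk* and *Axl*, and ligands whose receptors are not members. The complement protein *C3* (0.92 ± 0.04, 6772 CPM in IP), bound by the integrin that *Itgam* belongs to, and the lipid carrier *Apoe* (0.79 ± 0.02, 5654 CPM), a ligand of TREM2, rose most. *Csf1*, a ligand of the CSF1 receptor, had 2629 ± 100 CPM in input (SD, n = 6) and 3383 ± 109 CPM in IP (n = 12, 0.36 ± 0.02). *Il34*, the other ligand, rose by 0.30 ± 0.03 and *Cx3cl1*, the ligand of the fractalkine receptor, by 0.49 ± 0.02. *Il33* (-1.80 ± 0.04) and *Tgfb1* (-1.19 ± 0.02) were lower in IP. The adjusted p was at most 5.46e-13 for each ligand named here, of which *Csf1*, *Il34* and *Cx3cl1* were named because their receptors are members.

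The last comparisons ask whether ethanol changed these transcripts. In IP, 6 members were upregulated and 1 was downregulated, beside 11.9% and 9.48% of all genes tested (21.4% in all). In input, 5 were upregulated and 0 downregulated by edgeR and by DESeq2 4 and 0, beside 7.21% and 7.78% of all genes (15% in all). Whether these counts differ from the shares of all genes was not tested. The median log2 fold change of the members was 0.12 in IP and 0.07 in input, and that of all genes was 0.0054 and -0.00092. *Csf1r*, *Cd68* and *Ctsc* were upregulated in both fractions by edgeR, but DESeq2 did not call *Cd68* (adjusted p = 0.0585) and *Ctsc* (adjusted p = 0.132) in input. In IP 2 members (*Ctsc* and *Cybb*) had all ethanol libraries above all control libraries, beside 5.09% of all genes, and in input 7 did, beside 14%. No member had all ethanol libraries below all control libraries, which 4.87% of all genes had in IP and 13.1% in input.

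*Csf1r*, on which microglial survival depends, was called in both fractions by both tools. In input the 3 ethanol values (29.1, 25.8 and 25.8 CPM) lay above the 3 control values (23.6, 22.2 and 23.4 CPM), and the change was 0.22 ± 0.04 on the log2 scale (adjusted p = 2.48e-05, edgeR). In IP the control dishes ranged from 3.44 over a median of 3.74 to 4.17 CPM and the ethanol dishes from 3.89 over 4.69 to 5.40 CPM, and the change was 0.33 ± 0.07 (adjusted p = 0.000320). The IP ranges overlapped at the lower end of the ethanol dishes. Within the IP libraries of dishes without an input library the change was 0.20 with an adjusted p of 0.216. Its ligand *Csf1* was downregulated in input by 0.10 ± 0.02 (adjusted p = 7.85e-05).

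*Cybb* had the smallest adjusted p in IP. It ranged from 27.4 over 28.5 to 29.7 CPM in control IP and from 32.2 over 36.7 to 37.5 CPM in ethanol IP, with no overlap and a change of 0.34 ± 0.03 (adjusted p = 9.62e-12). In input the values were 107, 99.7 and 97.1 CPM in control and 132.7, 111 and 124 CPM in ethanol dishes. These also did not overlap, and the change of 0.27 ± 0.08 did not pass the test by edgeR (adjusted p = 0.112) but did by DESeq2. *Cyba*, which is made in many cells, changed by 0.01 (SE 0.03, adjusted p = 0.874) in IP and by 0.03 (SE 0.03, adjusted p = 0.694) in input.

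Of the lysosomal members, *Cd68* was upregulated by 0.23 ± 0.04 in IP (adjusted p = 2.82e-05), from 15.3, 16.6 and 19.1 CPM (lowest, median and highest) to 18.4, 19.8 and 20.4 CPM. In input it rose from 37.1, 35.9 and 36.1 to 40.2, 38.3 and 38.6 CPM (0.10 ± 0.04, adjusted p = 0.0496). The input groups were apart, and in IP the control and ethanol ranges overlapped. *Ctsc* was upregulated by 0.12 ± 0.04 in IP (adjusted p = 0.0188), where 14.7 to 15.7 CPM in control stood against 16.0 to 17.7 CPM in ethanol dishes, and by 0.11 ± 0.04 in input (adjusted p = 0.0181), where 39.3, 36.8 and 39.3 CPM stood against 44.8, 37.4 and 42.8 CPM. *Laptm5* rose in IP, from a median of 4.91 to 5.68 CPM (0.27 ± 0.07, adjusted p = 0.00454), and changed in input by 0.08 ± 0.04 (adjusted p = 0.184). *Lyz2* changed by 0.09 ± 0.06 in IP (adjusted p = 0.352) and by 0.03 ± 0.07 in input (adjusted p = 0.903).

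The other called members were on the cell surface or bound actin. *Fcrls* rose in IP, from 1.87, 2.37 and 2.77 CPM (lowest, median and highest) to 2.65, 2.83 and 3.18 CPM (0.27 ± 0.09, adjusted p = 0.0167). In input its change was -0.01 ± 0.06 (adjusted p = 0.984), and the difference between the fractions did not pass the test (adjusted p = 0.819). Within the IP libraries of dishes with an input library its change was 0.11 ± 0.12 and was not called (adjusted p = 0.635, edgeR). *Cd53* rose in input, from 14.3, 14.2 and 13.1 to 18.5, 16.4 and 16.7 CPM with no overlap (0.31 ± 0.06, adjusted p = 8.40e-07), and *Ptprc* from 6.20, 6.86 and 6.06 to 8.69, 6.98 and 7.25 CPM (0.26 ± 0.08, adjusted p = 0.0119). In IP *Cd53* changed by 0.22 ± 0.09 (adjusted p = 0.0642) and *Ptprc* by 0.28 ± 0.14 (adjusted p = 0.174). By edgeR over all 12 IP libraries, *Lcp1* was the only member downregulated in IP (DESeq2 also called *Olfml3*), from 19.9, 23.3 and 24.8 to 18.0, 20.4 and 21.9 CPM (-0.18 ± 0.05, adjusted p = 0.00460), and its input change was 0.07 ± 0.06 (adjusted p = 0.555).

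The C1q chains and the activating receptors gave no call by edgeR in either fraction. The largest change among them was that of *Fcgr3* in IP, from 1.03 to 1.43 CPM in control to 1.31 to 1.62 CPM in ethanol dishes (0.30 ± 0.12, adjusted p = 0.0542), which was called by DESeq2 and, with edgeR, under a stricter filter and without control replicate 2 or ethanol replicate 2. The C1q chains changed by 0.08 to 0.19 in IP and by -0.06 to 0.07 in input, *Tyrobp* by 0.03 ± 0.08 (adjusted p = 0.880) and -0.08 ± 0.05 (adjusted p = 0.387), and *Fcer1g* by 0.11 ± 0.06 (adjusted p = 0.160) and 0.02 ± 0.04 (adjusted p = 0.764). Including the members with few reads, the 30 uncalled members in IP ranged from -0.30 (*Slc2a5*) to 1.58 (*P2ry13*). A p that misses the threshold does not show that these were unaffected.

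**Figure D4:**
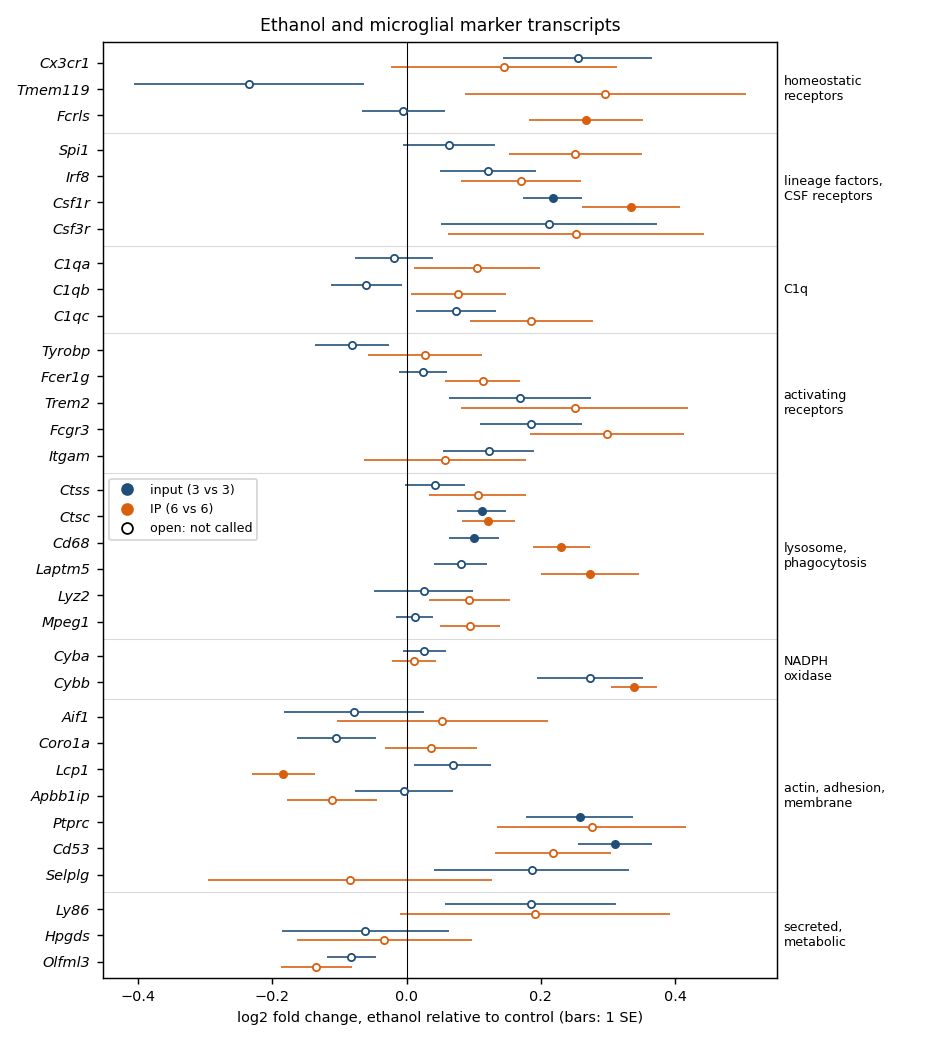
Log2 fold change of ethanol relative to control for the 33 members with at least 1 CPM in input, in input (blue, 3 dishes against 3) and IP (orange, 6 against 6), with bars of 1 SE; filled points have an adjusted p below 0.05. *Csf1r*, *Cd68* and *Ctsc* are filled and above 0 in both fractions, and *Lcp1* is the filled point below 0.

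**Figure D5:**
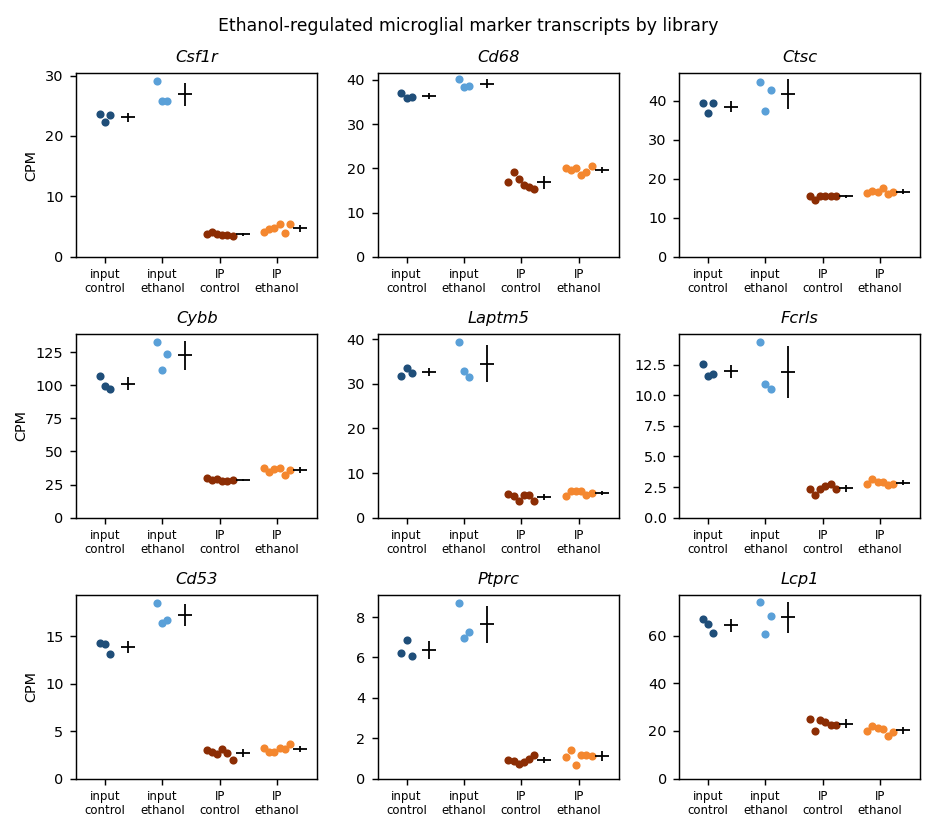
CPM of the 9 members called with ethanol in at least 1 fraction, in each library by group (points), with the mean and SD beside them (3 input and 6 IP libraries per group). *Cybb* lies at 32.2 to 37.5 CPM in ethanol IP and 27.4 to 29.7 CPM in control IP, while *Lcp1* is lower in ethanol IP, and the input level of each gene is above its IP level.

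The summed level of the members in input was 1102 ± 25 CPM in control and 1155 ± 89 CPM in ethanol dishes (SD, n = 3), a difference smaller than the spread of the ethanol dishes, of which only replicate 4 lay above all control dishes. In IP it was 300.4 ± 9.7 CPM in control and 320.1 ± 14.3 CPM in ethanol dishes (n = 6), with 5 of the 6 ethanol dishes above all control dishes. No p is given for a sum over chosen genes. Without input ethanol replicate 4, *Csf1r*, *Cybb* and *Cd53* were upregulated in input and *Olfml3* was downregulated, and without input control replicate 5 only *Csf1r*, *Ptprc* and *Cd53* were called. Of the 5 calls in input, that of *Cd68* was lost in 4 of 6 such fits (without control replicate 5 or 6 or ethanol replicate 4 or 6), that of *Ctsc* in 3 (without control replicate 5 or ethanol replicate 4 or 6, changes of 0.06 to 0.18) and that of *Ptprc* in 3 (without control replicate 4 or 6 or ethanol replicate 4, changes of 0.16 to 0.32). In IP, *Olfml3* was a further downregulated member without control replicate 2, ethanol replicate 2 or ethanol replicate 3, and *Ctsc* lost its call without control replicate 2 or ethanol replicate 4 and *Fcrls* without control replicate 2. The border macrophage markers summed to 43.3 to 46.6 CPM in control and 42.9 to 43.4 CPM in ethanol input. In IP their sums were 26.3 to 29.6 CPM and 23.1 to 24.9 CPM. Of the 10 tested, 1 was upregulated and 2 downregulated in IP, beside 11.9% and 9.48% of all genes. The sums need not stand for each marker, and the part of these markers in the changes above was not tested.

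Whether ethanol acted differently on the fractions was tested as an interaction. With edgeR over the 18 libraries, 0 of the 37 members were called, beside 0% of all 24495 genes (unadjusted p below 0.05 in 2 members and 1459 genes), and DESeq2 also called 0 members. The 2 were *Lcp1*, with a difference of -0.26 ± 0.10 (adjusted p = 0.791, edgeR), and *Fcrls*, with 0.26 ± 0.12 (adjusted p = 0.819). Input and IP of the same label came from the same dish. In the 12 libraries of the 6 dishes with the dish as a block, *Lcp1* was called, with an ethanol change in IP below that in input by a log2 difference of -0.29 ± 0.05 (adjusted p = 0.000134), where 94 of all genes were called above and 8 below. The IP level of *Lcp1* was 0.348 to 0.368 of its input level without ethanol (3 dishes) and 0.281 to 0.296 with it (3 dishes). These ratios come from the libraries of the block fit and are no further test. The share of all genes with such ratios apart was not counted. For *Fcrls* the difference with the block was 0.12 ± 0.12 (adjusted p = 0.903).

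Of the 48 further myeloid genes, 8 were upregulated and 1 downregulated in IP (median log2 fold change 0.07) and 10 and 0 in input (0.08). Over all genes the shares were 11.9% and 9.48% in IP and 7.21% and 7.78% in input. Whether the counts differ from these shares was not tested. The lipase *Lpl* rose by 0.30 ± 0.05 in IP, and the beta-glucan receptor *Clec7a* by 0.43 ± 0.12 and *Cd84* by 0.28 ± 0.10 in input. *P2ry6*, a purinergic receptor linked to phagocytosis, was downregulated in IP by 0.20 ± 0.06. Among the ligands, the chemokines *Cxcl10* (-0.36 ± 0.05 in IP and -0.31 ± 0.02 in input) and *Ccl2* (-0.33 ± 0.05 and -0.23 ± 0.02) were downregulated in both fractions.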

How the data were processed

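Per the labels and the study's methods, the authors prepared libraries with a stranded total RNA kit with rRNA depletion, trimmed reads with Trimmomatic, aligned them with STAR to GRCm38 and deposited counts of read pairs per gene. The counts used here take both strands, and gene-strand counts were an alternative. Testing covered genes that reached 10 pairs summed over all 18 libraries and used edgeR 4.0.16 (TMM, robust quasi-likelihood F test, R 4.3.3), with SE as the log2 fold change over the root of F and Benjamini-Hochberg adjustment over all genes tested (threshold 0.05). The fit for IP against input had 18 libraries and treatment as a covariate. Ethanol was compared separately in the 12 IP and the 6 input libraries, and its interaction with fraction over all 18. DESeq2 1.42.0, other scalings and filters, a block, and leaving out each library were alternatives. CPM used TMM. Library depth (74239900 to 132811000 pairs) bounds what low genes can show.

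The members and lists were chosen with earlier results of these data known. Members were all accounted for. Values are given for called members and the 5 highest per kb, and for other lists the 2 largest and 2 smallest called changes at 1 CPM or more, apart from items not reported here. No replicate was a copy of another, since counts of 36 replicate pairs differed by a chi-square of 4.06 to 18.9 per degree of freedom. Input and IP with the same number and treatment came from the same dish, and their deviations correlated at 0.030 to 0.161. Exon lengths were from the annotation of GRCm38 and promoter windows from RefSeq. Scripts were tested on simulated data.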

Additional observations from a re-analysis of the deposited data

Results flagged for a closer look

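Among 76 groups examined, 5 values stood apart from the rest of their group by Dixon's criterion at the 95% level, which chance alone meets in about 1 in 20 groups. In IP of control dishes, *P2ry13* had 0.0131 CPM in replicate 5 and 0 in the others, *C1qc* had 2.37 CPM and *Fcer1g* 9.34 CPM in replicate 1, above the other 5 dishes, and *Ctsc* had 14.7 CPM in replicate 2, below the other 5. The summed level of the members in IP of ethanol replicate 5 was 291.6 CPM, below the other 5 ethanol dishes. The ethanol change of *Lcp1* differed between the fractions with the dish as a block, by a log2 difference of -0.29, IP minus input.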

How the results depend on the processing

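The count of members lower in IP was 34 in the alternatives run, including the block for dish, except 33 of 33 tested under the stricter filter, which left out *P2ry13*, and leaving out a library gave 34 to 34 lower and 0 to 1 higher (*Slc2a5*, without input ethanol replicate 4). For ethanol in IP, leaving out a library gave 5 to 9 members upregulated and 1 to 2 downregulated. The downregulated count was 2 under DESeq2, RLE size factors, no filter, a stricter filter, gene-strand counts and in dishes with an input library, and 0 in dishes without one. With a replicate block for the number that control and ethanol dishes share, which pairs no dishes (correlations of -0.108 to 0.262 in IP), it was 2 and the upregulated count was 11. For ethanol in input, leaving out a library gave 3 to 7 upregulated and 0 to 1 downregulated. The interaction gave 0 to 0 calls on leaving out a library and 1 with the replicate block for dish. Without *Lyz2* the summed level was 743 CPM in input and 252 CPM in IP, a ratio of 0.334. Changes near 0 turned sign. Leaving out a library moved *Cyba* in IP between -0.017 and 0.027, *Tyrobp* in IP between -0.029 and 0.077, *Lyz2* in input between -0.053 and 0.063 and *Fcer1g* in input between -0.058 and 0.088. *Cyba* was at -0.011 in IP of dishes without an input library, and *Tyrobp* at -0.0053 in dishes with one. The cause of these shifts was not tested.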

Other observations

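Genes on none of the lists also fell strongly in IP, and those named here were chosen after their values were seen. Of 11173 genes with at least 5 CPM in input, 103 had a log2 fold change below -2 (0.922%), among them 16 of the 25 members, 10 of 33 further myeloid genes, 13 of 13 genes of the mitochondrial genome and 62 genes on no list. The last included *Adgre1* (F4/80), a surface receptor of mouse macrophages, at 113 CPM in input and 16.9 CPM in IP. The scavenger receptor *Marco* had 64.8 and 10.8 CPM and the formyl peptide receptor *Fpr1* 13.3 and 1.73 CPM. Genes that are not myeloid markers were among the 62 as well. These included *Fth1*, the ferritin heavy chain, at 8054 and 1644 CPM, *Cthrc1* at 93.7 and 19.5 CPM and *Foxa1* at 79.9 and 19.6 CPM. *Ttr* had 28.7 and 3.84 CPM and the pseudogene *Gm10925* 10.4 and 0.384 CPM.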
